A study of Homo sapiens with 7 samples.

Results

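L-1236 is an established cell line of classical Hodgkin lymphoma (HL), a B-cell malignancy whose tumour cells, the Hodgkin/Reed-Sternberg (HRS) cells, have lost much of the B-cell program. Its transcript levels were set against those of 6 further lines of the disease, namely U-HO1, SUP-HD1, L-540, L-428, KM-H2 and HDLM-2. Each of the 7 lines was profiled as total RNA of cultured cells on 1 Affymetrix HG U133 Plus 2.0 array, so L-1236 accounts for 1 of 7 arrays. The labels assign no treatment, time or genotype to any line. The values are log2 levels made by the robust multi-array average (RMA) method, so that 1 unit between lines stands for a doubling. The 54675 probe sets were read as 19775 genes. A single array per line leaves the spread between replicates unknown and allows no test, so genes were called by size alone. A gene was called when L-1236 lay at least 2 above the highest or at least 2 below the lowest of the other lines, a 4-fold gap. The methods name 2 laboratories as sources of the arrays without saying which line came from which, so laboratory and line cannot be told apart.

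The L-1236 array stood apart as a whole. The background of each array was set with 107 olfactory receptor probe sets, at their 95th percentile, since lymphoid cells do not use these genes. It was 5.59 in L-1236, against 4.49 to 4.86 in the other lines, and values below it were raised to it before gaps were taken. As a result 8609 genes lay above background in L-1236, against 10554 to 11636 in the other lines. The standard deviation of all levels was 1.88 in L-1236, against 2.15 to 2.17 in the others, and the bacterial control transcripts phe and lys read 4.53 and 4.02 in L-1236, against 5.93 to 7.19 and 5.02 to 6.36. Probe sets of the same gene disagreed with an SD of 0.82 for the L-1236 difference, against 0.54 to 0.62 for 5 other lines and 0.94 for U-HO1. When all probe sets were sorted by mean level into 10 bins, the median difference of L-1236 from the mean of the other lines was 0.26 in the fourth bin from the bottom, -0.72 in the ninth and -0.65 in the top bin. Bright probe sets thus read lower in L-1236 as a group, and the part of the array in any single difference was not tested. Therefore each gene was also read by its rank within its own array, and after the arrays had been quantile-normalized again so that all 7 had the same distribution.

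**Figure D1:**
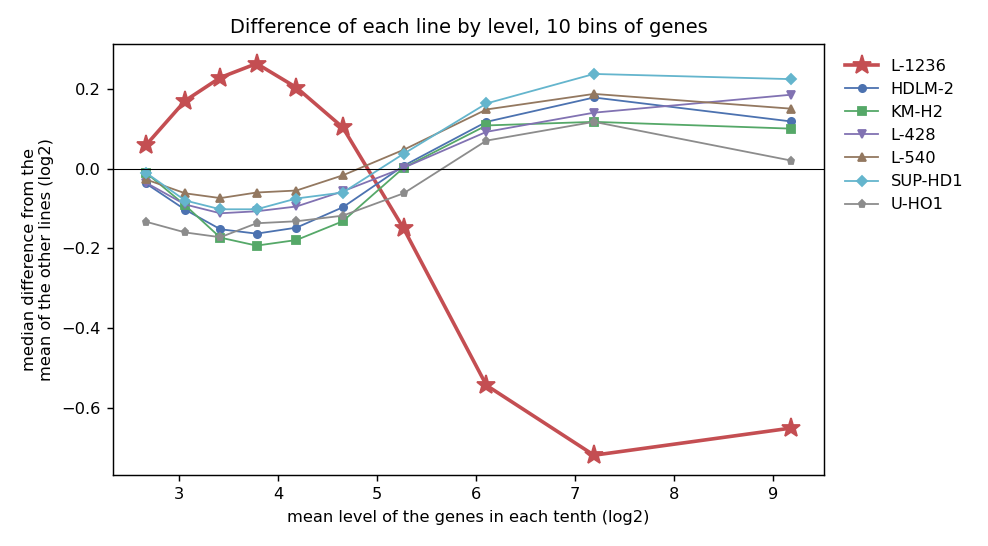
Median difference of each line from the mean of the other 6 (y axis, log2) in 10 bins of probe sets sorted by mean level (x axis, log2), with L-1236 as red stars. The plot labels call the probe sets genes. L-1236 lies above 0 in the bins of low level, up to 0.26, and below 0 in those of high level, down to -0.72, while the other lines stay between -0.19 and 0.24.

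Markers of the HRS cell were checked first, and further ones, some of them lowest in L-1236, are given below. Of 28 measured HRS genes 21 lay above background in L-1236, against 23 to 25 in the other lines. GATA3, a T-cell factor that HRS cells express aberrantly, was at 10.59 in L-1236 and between 8.26 and 11.23 in the other lines, and IRF4, a factor of activated B cells and plasma cells, was at 9.61 in L-1236 and between 10.28 and 10.79 in the others. The actin-bundling protein FSCN1 (fascin) was at 10.01 in L-1236, against 5.72 to 12.10. TNFRSF8, which encodes the HL marker CD30, was at 6.13 in L-1236, above SUP-HD1 at 4.36 and below the other 5 lines at 7.25 to 10.99. Of 27 measured T- and NK-cell markers, 5 lay above background in L-1236, against 8 to 14 in the other lines. Of 20 measured myeloid markers 2 did, against 1 to 6. Of all 19775 genes 8609 lay above background in L-1236, whose background was the highest. The defining B-cell surface gene MS4A1 (CD20) was at 4.26 in L-1236 and below background, as it was in every other line at 2.51 to 3.73.

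A total of 50 genes (0.253% of all genes) lay at least 2 above every other line in L-1236, and 52 genes (0.263%) lay at least 2 below. Among the other lines treated in the same way, 34 to 93 genes lay above and 9 to 28 below. On the deposited values the count below was thus the highest of the 7 and the count above was within the range. In all 50 genes L-1236 also had the highest rank within its array, and in all 52 the lowest. The genes were chosen by the same values, so such ranks follow largely from the choice. Over all genes L-1236 had the highest rank in 24.2% and the lowest in 19.7%. After the repeated normalization 163 genes (0.824%) lay above and 19 (0.0961%) below, against 29 to 70 above and 8 to 28 below in the other lines. The count above was then the highest of the 7 and the count below was within the range. The share of calls that were above moved to 89.6% in L-1236, against 49.0% in the deposited values. In the other lines this share was 56.9% to 82.2% after the repeated normalization. All 50 genes stayed among the 163, of which they are 30.7%, while 19 of the 52 (36.5%) stayed below, and these made up all of the 19. In 18 of the 50 genes all other lines were below background, so their gaps are lower bounds, and the same holds for the 24 of the 52 genes in which L-1236 itself was below background. The genes nearest to the limit were TMPRSS13 at 2.02 and CST1 at 1.98 above, and ATP13A3 at 2.00 and CLNS1A at 1.99 below.

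Among the genes farthest above the other lines, several were below background in all of them. ANKRD55, which encodes an ankyrin repeat protein, was at 10.78 in L-1236, while the other lines had a lowest level of 2.58, a median of 2.81 and a highest of 3.35. FCER1A, the chain of the high-affinity IgE receptor that binds IgE on mast cells and basophils, was at 10.52 in L-1236, against a lowest of 2.51, a median of 2.82 and a highest of 3.06. Of the 2 probe sets of FCER1A only 1 was above background in any line. BANCR, a long non-coding RNA first described in melanoma, was at 10.16 in L-1236, against 3.25, 3.66 and 3.73. In each of these 3 genes all 6 other lines were below background, which puts the gaps at no less than 60.5-fold, 50.6-fold and 39.4-fold. SLC16A4, a gene of the monocarboxylate transporter family, was at 9.18 in L-1236, against 2.36, 2.60 and 2.97, a gap of at least 20-fold. FCER1G, which encodes the gamma chain with which FCER1A is assembled, was below background in every line, at 4.81 in L-1236 and at 3.06 to 4.22 in the others.

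The promoter of FCER1A is shown because GATA factors are known to act on this gene in mast cells, and GATA3 is expressed in all 7 lines. It is the RefSeq promoter of build GRCh38.p14, chr1:159302086-159302385 on the plus strand, from 250 bases before to 50 bases after the start of the gene, with the letters GATAA, or TTATC for the other strand, in capitals.
FCER1A promoter: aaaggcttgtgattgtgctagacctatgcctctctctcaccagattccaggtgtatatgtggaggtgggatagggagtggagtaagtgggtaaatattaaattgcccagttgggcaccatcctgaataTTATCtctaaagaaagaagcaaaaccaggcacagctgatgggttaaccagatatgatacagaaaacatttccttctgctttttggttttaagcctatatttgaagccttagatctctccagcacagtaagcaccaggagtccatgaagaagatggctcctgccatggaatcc
This window holds 1 match. The same letters were in 22.7% of 35116 promoters and in 8 of the 36 genes above with a promoter entry (22.2%), so the match describes the sequence and nothing else. Of the GATA factors, GATA1 was at 5.05 in L-1236 and 4.54 to 5.34 in the others, inside the range of the other lines. GATA2 was at 5.60 in L-1236 and 5.13 to 6.13 in the others on a probe set that related transcripts share, while a second probe set read 6.44 in L-1236, against 3.91 to 5.33, so L-1236 was highest on that one.

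**Figure D2:**
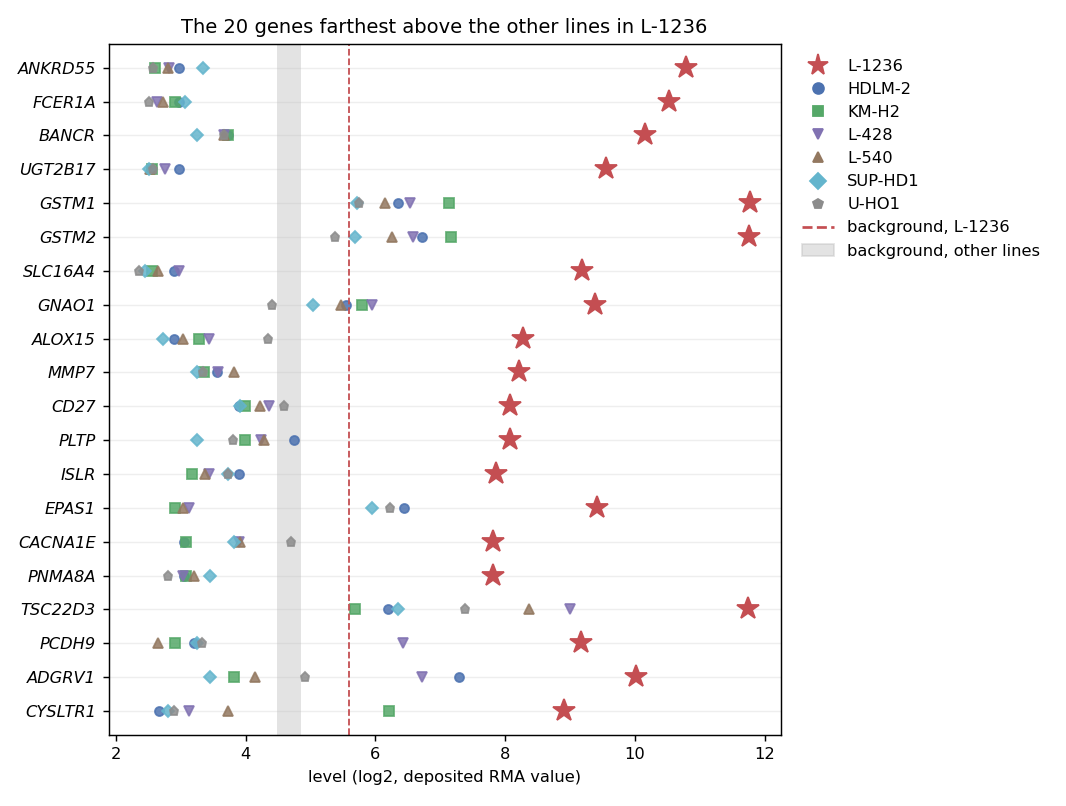
Levels (x axis, log2) of the 20 genes with the largest gap above the other lines, in L-1236 (red stars) and in each of the other 6 lines. The dashed line is the background of L-1236 at 5.59 and the grey band spans those of the other lines, 4.49 to 4.86, and the stars of all 20 genes lie to the right of every other symbol.

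Conjugation enzymes formed a group of neighbours among the genes above. GSTM1 and GSTM2 encode glutathione transferases of the mu class, which join glutathione to reactive compounds. GSTM1 was at 11.77 in L-1236, against a lowest of 5.72, a median of 6.24 and a highest of 7.14. GSTM2 was at 11.75 in L-1236, against 5.38, 6.42 and 7.17, and GSTM4 at 8.45 in L-1236, against 3.10, 5.28 and 6.16. These 3 genes lie side by side on chromosome 1. The next genes of the cluster had smaller differences, with GSTM5 at 6.25 in L-1236, against 4.08 to 5.20, and GSTM3 below background at 4.37 in L-1236, against 2.97 to 5.06. The probe sets of GSTM1 and GSTM2 carry the suffix of probes shared among related transcripts, so signal of 1 gene can be read as the other. UGT2B17 and UGT2B15, 2 neighbouring genes of chromosome 4 that encode UDP-glucuronosyltransferases of steroids, behaved alike. UGT2B17 was at 9.55 in L-1236, against 2.51, 2.56 and 2.97, and UGT2B15 was at 7.02 in L-1236, against 3.28, 3.78 and 4.21. For UGT2B15 only 1 of 3 probe sets was above background, again a probe set shared among related transcripts.

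ALOX15, the lipoxygenase that makes hydroxylated fatty acids and is known as a gene induced by interleukin 4 and interleukin 13, was at 8.27 in L-1236, against 2.73, 3.16 and 4.35. CYSLTR1, a receptor of cysteinyl leukotrienes, was at 8.91 in L-1236, against 2.67, 3.01 and 6.21, the highest being KM-H2, and its second informative probe set read 9.10 in L-1236, against 2.36 to 5.34. The sister receptor CYSLTR2 was at 7.99 in L-1236, above HDLM-2 at 7.42 and the other lines at 2.90 to 5.91, a gap that stayed short of 2. PLTP, the phospholipid transfer protein, was at 8.07 in L-1236, against 3.25, 4.11 and 4.75. FCER2, the low-affinity IgE receptor CD23 of B cells, was at 8.84 in L-1236 and 9.24 in HDLM-2, and at 3.59 to 4.72 in the other 5 lines.

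CD27, a receptor of memory B cells and T cells, was at 8.07 in L-1236, against 3.90, 4.11 and 4.59, so that all other lines were below background. Its ligand CD70 was at 7.92 in L-1236, above HDLM-2 at 5.67 and below the other 5 lines at 9.46 to 10.83. PECAM1 (CD31), an adhesion molecule of endothelial and blood cells, was at 7.42 in L-1236, against 4.10, 4.89 and 5.25. All 5 of its probe sets were highest in L-1236, and the brightest of them read 8.86 in L-1236, against 3.06 to 4.77. MARCO, a scavenger receptor of macrophages, was at 7.68 in L-1236, against 4.08, 4.41 and 4.98. Among 16 fibroblast, endothelial and epithelial markers PECAM1 was the only gene called, against 0.253% of all genes above. In L-1236 4 of the 16 lay above background, against 2 to 6 in the other lines. The median difference of the list was 0.54, against -0.05 over all genes. The summed log2 level of its 16 genes was 74.1 in L-1236, against 60.6 to 66.6 in the other lines. Most of these genes lay at background, where L-1236 reads higher as an array. The part of other cell types in these values was not tested.

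TSC22D3 (GILZ) and SGK1, which are known targets of the glucocorticoid receptor, were both above. TSC22D3 was at 11.74 in L-1236, against a lowest of 5.68, a median of 6.86 and a highest of 9.0, and 2 of its 3 probe sets were informative and highest in L-1236. SGK1, a serum- and glucocorticoid-regulated kinase, was at 10.19 in L-1236, against 3.48, 5.76 and 7.74. Other targets of this receptor were chosen after these values had been seen, and the part of the receptor was not tested. FKBP5 was at 9.42 in L-1236, inside the other lines at 8.35 to 10.38. The phosphatase gene DUSP1 was at 6.71 in L-1236, below the other lines at 7.32 to 9.55 on the deposited values. After the repeated normalization its gap below was -0.1, so L-1236 was not the lowest line.

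EPAS1, which encodes the hypoxia-inducible factor 2 alpha, was at 9.42 in L-1236, against 2.91, 4.53 and 6.44, although its other probe sets read 4.97 and 3.06 in L-1236, below background. MMP7, the protease matrilysin, was at 8.21 in L-1236, against 3.25, 3.46 and 3.82. TBXT, the mesodermal factor brachyury, was at 7.66 in L-1236, against 4.31, 5.03 and 5.25. ADGRV1, an adhesion receptor, was at 10.01 in L-1236 and 7.29 at most elsewhere, and PCDH9, a protocadherin, was at 9.16 in L-1236 and 6.43 at most elsewhere. Of the 5 probe sets of ADGRV1 and the 4 of PCDH9, only 1 each was above background in any line. GNAO1, a G protein subunit of neurons, was at 9.38 in L-1236, against 4.4, 5.51 and 5.95, but its other probe sets, at 4.11 to 5.25 in L-1236, showed no such gap. The calcium channel gene CACNA1E was at 7.81 in L-1236 and 4.70 at most elsewhere, and the WNT antagonist gene NKD1 was at 7.35 in L-1236 and 4.86 at most elsewhere.

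Among the genes below all other lines were those of the MHC class II molecules, which present peptides of extracellular proteins to CD4+ T cells. Their genes lie together on chromosome 6, are transcribed through a shared upstream box read by RFX, CREB and NF-Y, and depend on the coactivator CIITA. HLA-DRA, the alpha chain of HLA-DR, was at 7.18 in L-1236, against a lowest of 10.82, a median of 12.30 and a highest of 13.41. Its second probe set read 6.84 in L-1236, against 10.64 to 13.38, so the groups did not overlap on either probe set, and the gap was 12.5-fold on the first. HLA-DRB1 was at 7.58 in L-1236, against 9.97, 11.85 and 12.85, on a probe set that related transcripts share. HLA-DPB1 was at 5.93 in L-1236, against 9.03, 10.02 and 12.35, and its dim second probe set, at 4.19 in L-1236 and 3.20 to 5.84 in the others, did not separate the lines. HLA-DMA, part of the molecule that loads peptide onto class II, was at 5.81 in L-1236, against 7.90, 8.91 and 10.54. These 4 genes were the only ones called among 16 measured of 17 genes of the class II list (4 of 16 members, against 0.263% of all genes). After the repeated normalization HLA-DRA and HLA-DPB1 stayed called (2 of 16, against 0.0961% of all genes), while the gaps of HLA-DRB1 and HLA-DMA were 1.77 and 1.68.

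The remaining class II genes lay lower or within the range of the other lines. HLA-DQB1 was at 6.91 in L-1236, against 7.94 to 11.58. HLA-DMB was at 6.48 in L-1236, against 7.10 to 10.25. HLA-DOA was at 4.65 in L-1236, against 5.64 to 8.92, with L-1236 below its own background. HLA-DPA1 was at 10.33 in L-1236, just above SUP-HD1 at 10.15 and below the other 5 lines at 11.60 to 13.25. CD74, the invariant chain that guides class II molecules, was at 10.26 in L-1236, above U-HO1 at 9.55 and below the other 5 lines at 11.54 to 13.22. HLA-DPA1 thus stayed bright while HLA-DPB1, with which it forms HLA-DP, did not. Of the regulators, CIITA was at 4.11 in L-1236, against 4.58 to 7.37, with L-1236 below its own background, and RFX5 was at 7.20 in L-1236, against 8.87 to 10.52. RFXANK was at 8.36 in L-1236 and at 7.5 to 9.15 in the others, inside their range. Over the list the median difference of L-1236 was -2.29, against -0.34 over all genes above background in at least 1 line, and -1.82 against 0.02 after the repeated normalization. By rank within the array the median of the list was -14.5 percentile points in L-1236, and 8 of its 16 genes had their lowest rank there, against 22.3% of genes that exceeded background in any line.

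The promoters of HLA-DMA, HLA-DRB1 and HLA-DPB1 are shown because these genes were low together and share their upstream elements. HLA-DRA has no entry in the promoter table used. The sequences are those of RefSeq for build GRCh38.p14, at chr6:32953048-32953347 on the minus strand, chr6:32589799-32590098 on the minus strand and chr6:33075740-33076039 on the plus strand, each 300 bases long, with ATTGG and its reverse complement CCAAT, the core letters of the Y box that NF-Y reads, in capitals.
HLA-DMA promoter: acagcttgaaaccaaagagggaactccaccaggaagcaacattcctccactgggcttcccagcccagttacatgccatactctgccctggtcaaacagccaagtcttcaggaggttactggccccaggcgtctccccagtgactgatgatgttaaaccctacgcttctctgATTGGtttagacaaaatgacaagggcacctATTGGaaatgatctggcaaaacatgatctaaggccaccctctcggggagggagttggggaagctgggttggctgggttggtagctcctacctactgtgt
HLA-DRB1 promoter: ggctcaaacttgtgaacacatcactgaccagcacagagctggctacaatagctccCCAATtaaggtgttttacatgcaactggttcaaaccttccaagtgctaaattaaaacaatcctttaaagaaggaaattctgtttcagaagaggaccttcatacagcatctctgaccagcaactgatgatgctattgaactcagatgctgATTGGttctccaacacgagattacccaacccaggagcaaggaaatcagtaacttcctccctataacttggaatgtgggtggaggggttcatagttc
HLA-DPB1 promoter: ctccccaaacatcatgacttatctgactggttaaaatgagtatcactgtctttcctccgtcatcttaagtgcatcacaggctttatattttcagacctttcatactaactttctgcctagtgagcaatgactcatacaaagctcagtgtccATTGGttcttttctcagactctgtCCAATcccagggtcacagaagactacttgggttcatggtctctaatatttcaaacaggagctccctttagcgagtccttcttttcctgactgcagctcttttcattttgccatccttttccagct
Each of these 3 windows holds 2 matches. Of the 14 class II list genes with a promoter entry 11 hold the letters (78.6%), against 34.6% of all 35116 promoters, which describes the sequences and not the binding of a factor.

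**Figure D3:**
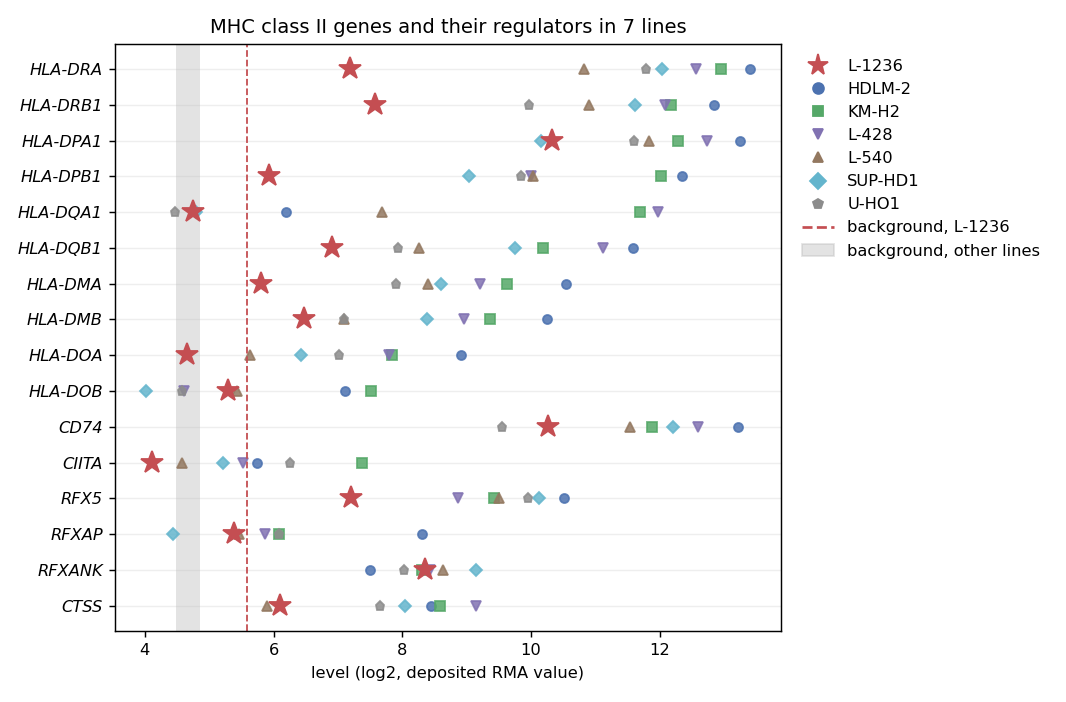
Levels (x axis, log2) of the 16 measured genes of the MHC class II list in L-1236 (red stars) and in each of the other 6 lines, with the background of L-1236 (dashed line, 5.59) and the range of the other backgrounds (grey band). L-1236 lies to the left of every other line in HLA-DRA, HLA-DRB1, HLA-DPB1, HLA-DQB1, HLA-DMA, HLA-DMB, HLA-DOA, CIITA and RFX5, but not in HLA-DPA1, CD74 or RFXANK. For CIITA the lines are not separated once values are raised to background.

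Of 47 measured integrin, selectin and adhesion genes 1 was called above and 1 below, against 0.253% and 0.263% of all genes, and the median difference of the list was -0.25. MSN, which encodes moesin, a linker of actin to the cell membrane, was at 4.05 in L-1236 and below background, against a lowest of 9.47, a median of 10.32 and a highest of 11.19, a gap of at least 14.7-fold. TMSB4X, the actin-binding thymosin beta 4, was at 8.84 in L-1236, against 11.76, 13.20 and 13.68. ITGB1, the beta 1 integrin chain, was at 6.2 in L-1236, against 9.19, 10.05 and 11.74, and all 3 informative probe sets were lowest in L-1236. Its partner ITGAV was at 5.87 in L-1236, against 7.56 to 10.20, whereas ITGA4 was at 8.30 in L-1236, inside the other lines at 2.87 to 8.80. The hyaluronan receptor gene CD44 was at 9.75 in L-1236, above every other line, the highest being HDLM-2 at 9.36, but L-1236 was highest on 4 of 8 informative probe sets and HDLM-2 on others, such as 8.65 in L-1236 and 9.04 in HDLM-2 on 1 of them.

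The largest gap below was that of the splicing regulator MBNL1 (muscleblind), which was at 5.78 in L-1236, against 9.77, 10.15 and 11.13, a gap of 15.9-fold, and 5 of 7 probe sets were lowest in L-1236. RBMS1, a binder of single-stranded nucleic acid, was at 2.70 in L-1236, against 9.38, 9.56 and 9.71, and all 6 of its probe sets were lowest in L-1236. SLC38A1, a glutamine transporter, was at 3.03 in L-1236, against 9.56, 9.87 and 10.34, a gap of at least 15.7-fold. A pair of neighbours on chromosome 9 was low together, with EDF1, a transcriptional coactivator, at 4.43 in L-1236, against 8.98, 9.52 and 10.11, and PHPT1, a phosphohistidine phosphatase, at 4.11 in L-1236, against 8.69, 9.75 and 10.57. For EDF1 and PHPT1 both probe sets of each gene were lowest in L-1236.

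**Figure D4:**
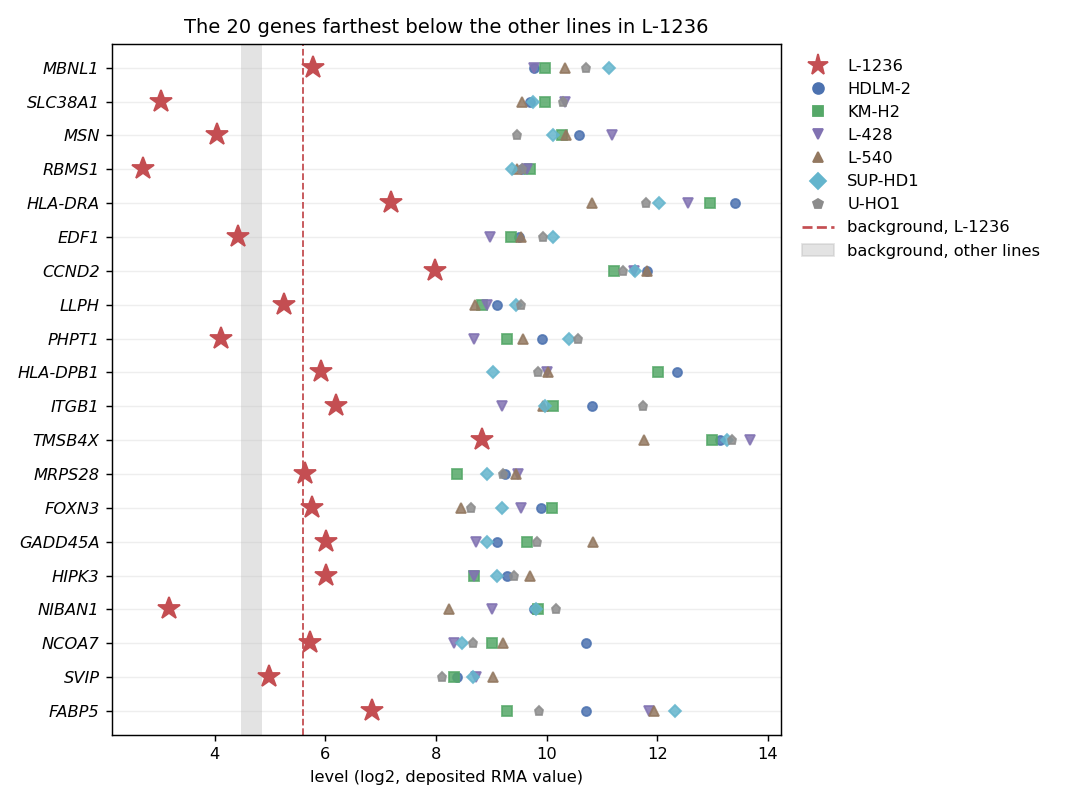
Levels (x axis, log2) of the 20 genes with the largest gap below the other lines, in L-1236 (red stars) and in each of the other 6 lines. The stars of all 20 genes lie to the left of every other symbol, and those left of the dashed line at 5.59 are below the background of the L-1236 array, so that their gaps are lower bounds.

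Of 28 measured cyclin D, CDK inhibitor and p53 pathway genes, 2 were called below and none above, against 0.263% and 0.253% of all genes. CCND2, the cyclin D that opens the G1 phase in lymphoid cells, was at 7.99 in L-1236, against a lowest of 11.22, a median of 11.59 and a highest of 11.82. Of its 4 probe sets 3 were lowest in L-1236, and on the fourth U-HO1 was lower. On 2 of those 3 L-1236 was below background at 5.15 and 5.11, while U-HO1 read only slightly more, 5.36 and 5.63. Signal loss towards the 5 prime end of transcripts was read from the 3 prime minus 5 prime probe sets of ACTB. This difference was largest for U-HO1 at 2.11, against 0.06 to 0.54 in the other lines, L-1236 included at 0.44. For GAPDH U-HO1 did not stand out, at 0.17 against 0.18 for L-1236. The part of such loss in the CCND2 values was not tested. GADD45A, a growth arrest gene that p53 induces, was at 6.02 in L-1236, against 8.72, 9.38 and 10.84. MDM2, the ubiquitin ligase that degrades p53 and is itself a p53 target, was at 4.11 in L-1236, against 6.82, 8.52 and 9.67, so L-1236 was the only line below background. Its probe sets disagreed, as L-1236 was lowest on 5 of 9 informative ones and highest on 1. ZMAT3 was at 5.91 in L-1236, against 6.67 to 8.98, and RRM2B at 5.05 in L-1236, below background, against 6.43 to 7.53. CDKN1A was at 7.63 in L-1236, inside 6.03 to 9.65. In the opposite direction CDKN2A, which encodes inhibitors of CDK4 and of MDM2, was at 11.22 in L-1236, against 4.15, 7.88 and 10.22, with a second, dimmer probe set inside the range of the other lines. The neighbouring inhibitor gene CDKN2B was at 6.06 in L-1236 and below background in all other lines at 3.32 to 3.73.

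Of 45 cell cycle genes, none was called, against 0.253% of all genes above and 0.263% below. A gap of at least 1 below was found in 5 of them, against 3.32% of all genes. CDK1 was at 7.98 in L-1236, against 9.64 to 10.97, and the spindle kinase TTK at 5.85 in L-1236, against 7.16 to 9.18. The list median was -0.83 on the deposited values and -0.20 after the repeated normalization. Of 28 polycomb and DNA methylation genes EZH2, the histone H3 lysine 27 methyltransferase, was the only one called, against 0.263% of all genes below, at 6.71 in L-1236, against 8.84, 9.38 and 9.89. After the repeated normalization its gap was 1.44, short of a call. Its partner EED was at 7.91 in L-1236, against 9.13 to 10.97, and the third core subunit SUZ12 was at 9.53 in L-1236, inside 9.02 to 10.79. EED and EZH2 were lowest in L-1236 while SUZ12 was not.

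HRS genes differed among themselves. None of 28 was called, against 0.253% of all genes above and 0.263% below, and 3 had a gap of at least 1 below, against 3.32%. CD83, a maturation marker of antigen-presenting cells, was at 5.95 in L-1236, against 7.63, 8.96 and 11.64. TRAF1, an adaptor that NF-kB induces, was at 4.97 in L-1236, below background, against 7.12, 8.06 and 9.17, and the glycan-binding protein gene LGALS1 was at 10.44 in L-1236, against 12.27, 12.53 and 13.14. CCL17, the chemokine that attracts T helper cells to HRS cells, was at 6.84 in L-1236, above L-540 at 6.64 and below the other 5 lines at 7.34 to 13.07. The cytokine gene IL6 was at 8.94 in L-1236, above every other line, the highest being KM-H2 at 8.68, and CD40 was at 9.49 in L-1236, inside 6.55 to 9.51. The median of the list was -0.58, against -0.34 over all genes above background in at least 1 line.

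B-cell transcription factors had no common direction in L-1236. PAX5, which fixes B-cell identity, was at 7.81 in L-1236, with U-HO1 at 8.18 and SUP-HD1 at 7.80, and the other lines at 4.60 to 5.74. POU2AF1, the coactivator OBF1, was at 6.81 in L-1236, below SUP-HD1 at 9.39 and above the other 5 lines at 2.80 to 4.59. TCF3 (E2A) was at 10.51 in L-1236, below L-540 at 10.98 and above the other 5 lines at 8.93 to 9.24, although another probe set read 7.73 in L-1236, below all others, the lowest of which was at 8.61. STAT6 was at 10.01 in L-1236, above the others at 8.14 to 9.40. EBF1, the partner of PAX5 in early B cells, was at 3.0 in L-1236, against 5.29, 6.33 and 9.88. L-1236 was the only line below its own background, and the other EBF1 probe sets were lowest in L-1236 too. The background of L-1236, 5.59, lies above the 5.29 of L-428. With values raised to background the gap below was therefore -0.3, which does not separate the lines. BCL6, the repressor of the germinal centre, was at 5.17 in L-1236, against 6.55, 8.42 and 9.10, and FOXO1 was at 4.19 in L-1236, against 5.79 to 7.59. In both genes L-1236 was below background, and the gaps below were 0.96 and 0.2. None of 19 B-cell factors was called, against 0.253% of all genes above and 0.263% below. L-1236 had the highest rank in 4 and the lowest in 5, shares near the 24.2% and 19.7% of all genes. MSC (ABF1), which antagonizes TCF3, was at 5.03 in L-1236 and below background, against 6.94 to 9.32, and ID2, a further antagonist, was at 10.81 in L-1236, inside 8.73 to 12.23.

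Genes of cytokine signalling and apoptosis gave single large values. CCL2, a chemokine for monocytes, was at 10.47 in L-1236 and 8.80 in SUP-HD1, and at 2.74 to 3.0 in the other 5 lines. CXCL10, a chemokine that interferon induces, was at 10.90 in L-1236, below SUP-HD1 at 11.55, with the others at 3.82 to 10.01. The interferon-stimulated gene IFI44L was at 8.66 in L-1236, against 2.36, 3.44 and 6.83, while the median of 47 interferon-stimulated genes was -0.86 (-0.38 after the repeated normalization). The STAT targets SOCS2 and PIM1 were lowest in L-1236, SOCS2 at 5.09 in L-1236, against 6.91 to 10.55, and PIM1 at 4.33 in L-1236, against 6.25 to 9.0. IL15 was at 3.32 in L-1236, against 5.87 to 8.82. In SOCS2, PIM1 and IL15 L-1236 was below background, and with values raised to it the gaps below were 1.32, 0.66 and 0.28. BCL2L11, which encodes the death activator BIM, was at 9.07 in L-1236, against 3.66, 5.12 and 8.07, the highest being U-HO1, and BIRC7 (livin) was at 6.98 in L-1236, against 4.93, 5.01 and 5.11. BCL2 was at 7.93 in L-1236, inside 6.01 to 8.59, whereas BIRC5 (survivin) was at 7.05 in L-1236, against 8.03 to 9.77. None of the 26 measured regulators of apoptosis was called, against 0.253% of all genes above and 0.263% below. L-1236 had the highest rank in 9 and the lowest in 5, against 24.2% and 19.7% of all genes.

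Homeobox and receptor kinase genes had isolated highs. NKX2-2, the NKL homeobox gene that the study set out to examine, was at 2.97 in L-1236 and at 2.67 to 3.03 in the others, below background in all 7 lines. NKX6-1 of the same subclass was at 6.79 in L-1236, against 3.03, 3.86 and 4.10, and 16 of 36 measured NKL genes had their highest rank in L-1236, against 24.2% of all genes, although 6 of the 36 lay above its background. HOXD11 was at 6.75 in L-1236, against 3.11 to 4.69, and HOXD10, its neighbour, at 5.93 in L-1236, against 3.03 to 4.51. EGFR read 6.79 in L-1236, against 3.80 to 4.60, on 1 probe set, but on its other probe sets L-1236 was near or below background, and on 2 of them KM-H2 was the brightest line, at 7.78 and 7.82, with L-1236 at 3.71 and 4.91. L-1236 was highest on 4 of 6 informative EGFR probe sets. PDGFRA was at 2.67 in L-1236 and 2.95 in L-540, both below background on the probe set read, whereas KM-H2, SUP-HD1 and U-HO1 were at 9.59 to 10.61. Of the genes placed around NKX2-2 by the study, SMURF2, a ubiquitin ligase, was at 7.73 in L-1236, above the others at 6.53 to 7.23 on the brighter of its probe sets, and DAZAP2 was at 10.47 in L-1236, close to the median of 10.51 in the others.

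Glycolysis genes stayed high in L-1236. Of 31 measured genes of glycolysis and hypoxia 14 had their highest rank in L-1236 and 0 their lowest, against 22.7% and 22.3% of genes that exceeded background in any line. The aldolase gene ALDOC was at 11.67 in L-1236, with HDLM-2 at 11.18 and KM-H2 at 10.63, and the other lines at 3.92 to 7.38. ALDOA was at 13.27 in L-1236, against 11.63 to 12.60, and PKM was at 12.43 in L-1236, against 9.49 to 12.10. GAPDH was at 13.70 in L-1236, inside 13.49 to 14.04. The median of the list was 0.28 on the deposited values and 0.82 after the repeated normalization. EPAS1 alone was called, against 0.253% of all genes above.

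**Figure D5:**
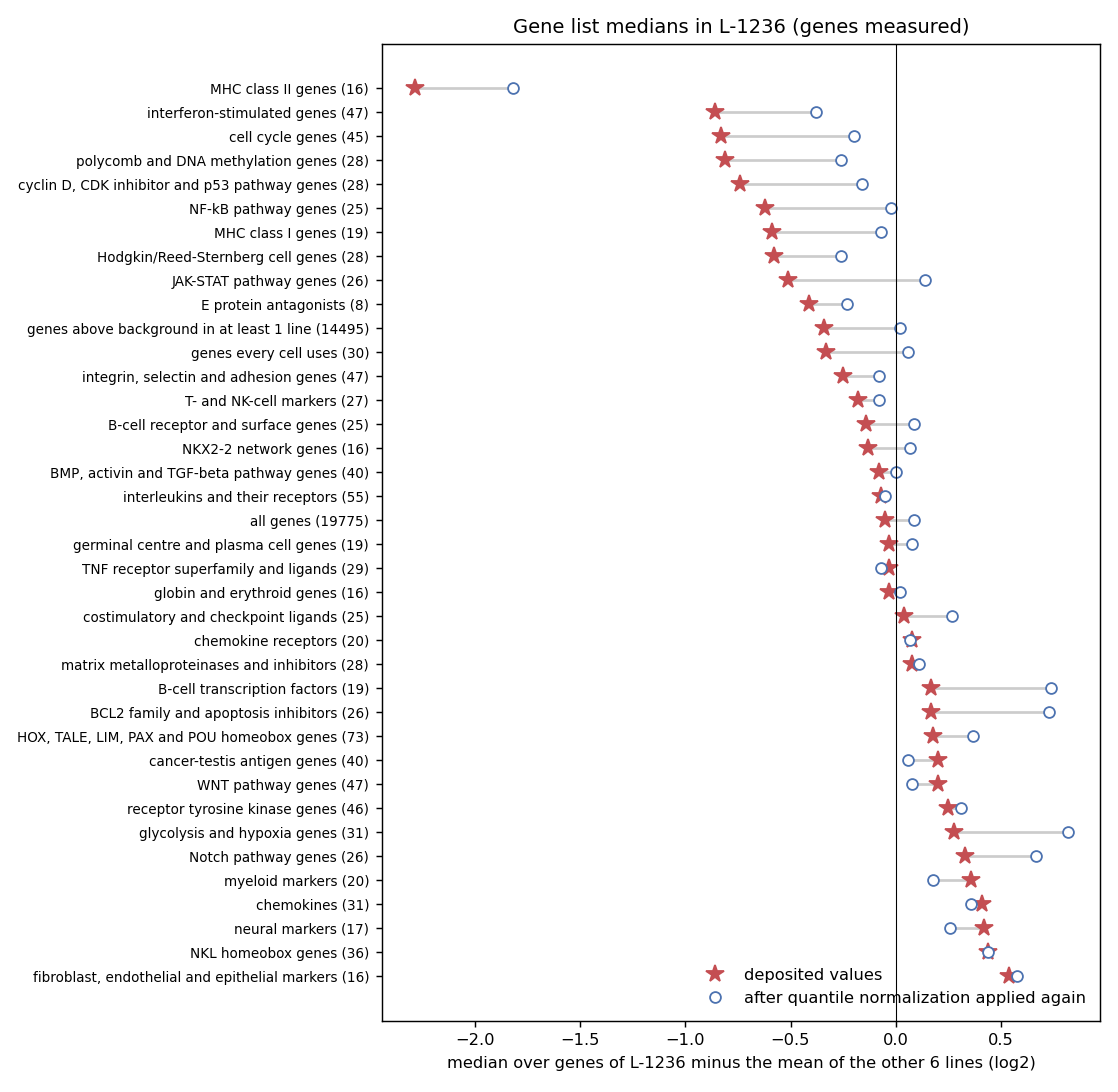
Median over the genes of each list of L-1236 minus the mean of the other 6 lines (x axis, log2), on the deposited values (red stars) and after quantile normalization applied again (open circles), with the number of measured genes in parentheses. MHC class II genes lie farthest from 0 at -2.29 and -1.82, and cell cycle genes move to -0.20 after the repeated normalization, against -0.83 on the deposited values.

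By chromosome, 10 of the 52 genes below lay on chromosome 12 (10 of its 778 genes above background in at least 1 line) and 10 on chromosome 6 (of 752), against 0.359% of such genes on all chromosomes, and HLA-DRA, HLA-DRB1, HLA-DPB1 and HLA-DMA are among those on chromosome 6. Of the 50 above, 9 lay on chromosome 1 (of 1453) and 6 on chromosome 6, against 0.345% of such genes on all chromosomes. After the repeated normalization the median difference was lowest on chromosome 13 (-0.44) and highest on chromosome 20 (0.43), and values of this size were reached in another line too, as HDLM-2 had a median of 0.62 on chromosome 13 and -0.64 on chromosome 20. Across all genes L-1236 was most like L-428 (Pearson r = 0.84 over 19775 genes) and least like KM-H2 (r = 0.81). The mean r of L-1236 with the other lines was 0.82. For each other line this mean, which includes its r with L-1236, was 0.85 to 0.87. Genes are not independent replicates, and all pairs with L-1236 share its array.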

How the data were processed

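Total RNA of 7 HL cell lines was hybridized to Affymetrix HG U133 Plus 2.0 arrays, 1 array per line. The deposited values are log2 levels that the authors computed with RMA, which subtracts background, normalizes quantiles between arrays and summarizes the probes of a probe set, and their processing notes also name the affy and limma packages. Their versions were not given in the sources used here. L-1236, the line of interest, was set against the other 6 lines, and the methods' DEV line was not analysed here.

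Of 54675 probe sets, 41097 had 1 gene symbol, 1801 several and 11777 none in the platform annotation, and 41043 symbols were updated through RefSeq gene identifiers. For each gene the brightest probe set, by its mean over all arrays, was used (19775 genes, of which 14495 lay above background in at least 1 line). Values below the background of their array were raised to it, and the gap to the nearest other line was taken, with a limit of 2. Levels are compared between lines for the same gene only. Differences from the mean of the other lines, percentile ranks within each array and values after a second quantile normalization were computed with Python 3.11.15, numpy 2.4.6 and pandas 2.3.3. The gap calls were tried on simulated data in which all lines had the same spread, so the narrower levels of L-1236 were not reproduced. Of 25 genes raised and 25 lowered by 2, 6 and 2 were called. For changes of 3 the calls were 25 and 15, and for changes of 4 they were 25 and 16. Of 19575 unchanged genes 0 were called. Depth does not apply to arrays, and their number, 1 per line, limits the precision. Genes to name were drawn from up to 30 with the largest gap in each direction and up to 4 per list with the largest difference. The genes of the study's NKX2-2 network were a further source, and the text names only part of all these genes. Further members of these lists and gene families, and the genes nearest to the limit, were named after their values had been seen. The 36 gene lists and the line itself were chosen with earlier results of these data known. Alternatives varied the probe set read per gene, the scaling, the background level, the size of the gap and the lines compared. The label of HDLM-2 gives the name of the cell line with 2 letters exchanged.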

Additional observations from a re-analysis of the deposited data

Results flagged for a closer look

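For 18 measures of the arrays and the medians of 36 gene lists, the line farthest from its neighbour was compared with the spread of all 7 lines, a check by which chance marks about 1 in 20 groups. L-1236 was marked in 8 array measures and in 3 list medians, and these measures are related to one another. The background of 5.59 in L-1236 was above the next value of 4.86 in HDLM-2. The 8609 genes above background in L-1236 were below the next count of 10554 in HDLM-2. The SD of levels was 1.88 in L-1236 and 2.15 in L-428, the interquartile range was 2.51 in L-1236 and 2.99 in L-428, and the 99th percentile of levels was 10.7 in L-1236 and 11.2 in KM-H2. The median difference over the bin of the highest levels was -0.65 in L-1236 and 0.02 in U-HO1. The mean correlation with the other arrays across genes was 0.821 (Pearson) and 0.802 (Spearman) in L-1236, against 0.853 and 0.835 in KM-H2.

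The 3 gene lists were chemokines, NKL homeobox genes and genes every cell uses. The median difference of the chemokines was 0.412 in L-1236, with the next value at -0.128 in KM-H2, and 5 of 31 measured chemokines lay above background in L-1236. For NKL homeobox genes it was 0.435 in L-1236, and the nearest line was L-540 at -0.026, and 6 of 36 lay above background. That of the genes every cell uses was -0.325 in L-1236, with the next at -0.027 in HDLM-2, and 29 of 30 lay above background. After quantile normalization applied again the medians in L-1236 were 0.36, 0.44 and 0.06 for the chemokines, the NKL homeobox genes and the genes every cell uses. The first 2 lists hold mostly genes at background, where L-1236 reads higher as an array, and the third holds bright genes, where it reads lower, and the part of the array in these medians was not tested.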

How the results depend on the processing

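No paired analysis was possible because 1 array was made per line. The count of genes at least 2 above every other line, 50, was 163 after quantile normalization applied again, 92 without raising values to background, 29 with the mean of all probe sets and 26 with the background at the 99th percentile. The count below, 52, was 19 after quantile normalization applied again, 162 without raising values to background, 24 with the mean of all probe sets, 29 without probe sets ending in _x_at or _s_at and 34 with the background at the 99th percentile. With a gap of 1 the counts were 435 above and 657 below, and with a gap of 3 they were 12 and 10. Leaving out each other line in turn gave 56 to 61 genes above and 63 to 79 below, the last without L-428. Of the genes from which those named were drawn, 63 were called. Of these 63, 50 kept their call after quantile normalization applied again, 57 with the probe set of largest variance, 38 with the mean of all probe sets and all 63 with each array minus its median. For these genes the gap below turned to -0.23 for CCND2 and -1.0 for HIPK3 with the probe set of largest variance, to -0.16 for LLPH, -0.69 for ITGB1, -0.92 for HIPK3, -0.78 for NCOA7 and -0.09 for RABGAP1L with the mean of all probe sets, and to -1.10 for HLA-DPB1 and -0.27 for RABGAP1L without probe sets ending in _x_at or _s_at. The median of MHC class II genes stayed between -1.59 and -2.46 under all log2 settings, against -2.29 as reported, including the setting with values raised to background, -1.96, which was added after seeing the data. By percentile rank it was -14.5. Of 576 values of list medians under the alternatives 483 kept their sign, and the cause of the other changes was not tested. Precision is limited by 1 array per line and by the higher background of L-1236, below which no level can be read.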
